A study of Mus musculus with 2 samples.

Results

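The genes that write, maintain and remove DNA methylation were compared between 1 array labelled Satb1 and 1 array labelled GFP. The set comprised the DNA methyltransferase genes Dnmt1, Dnmt3a, Dnmt3b and Dnmt3l, the dioxygenase genes Tet1, Tet2 and Tet3, and Uhrf1. They were taken by name: every probe set of the array whose platform annotation gives exactly 1 gene symbol, current or former, among these 8 genes. This gave 20 of the 45037 probe sets and 8 of the 18193 genes. The cells came from the bone marrow of wild-type C57BL6J mice and are described as LSK Flt3- cells, that is, cells without lineage markers or Flt3 that carry Sca-1 and much c-Kit, a fraction rich in haematopoietic stem cells. Both groups were transduced, the control with GFP and the other with Satb1, the gene of a chromatin organiser with affinity for AT-rich DNA. The sources used here do not state how many animals were used, which vector, or how long after transduction RNA was taken. Where a pair of intensities is given, the array labelled GFP comes first and the array labelled Satb1 second. With 1 array per group, no difference below has a replicate error or a p-value.

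DNA methylation places a methyl group on cytosine, mostly where a guanine follows (CpG). Dnmt3a and Dnmt3b set new methylation, with Dnmt3l as a partner that lacks catalytic activity, while Dnmt1 copies existing methylation onto the new strand after replication at sites that Uhrf1 recognises. The TET enzymes oxidise the methyl group, which opens a route to its removal. In blood stem cells Dnmt3a and Tet2 are known as regulators of self-renewal and differentiation, and both are often mutated in clonal haematopoiesis.

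These genes have promoters of very different CpG content, shown here because CpG is the substrate of the enzymes they encode. RefSeq windows (build GRCm38.p6) of 300 bases, 250 before and 50 after a transcript start, were matched for 8 of the 8 genes, with 15 windows in all. Below are the bases of the Dnmt3b window and of the first Dnmt3l window that lie before the annotated gene, 5′ to 3′, with each CpG in capitals. Dnmt3b is shown because it had the largest difference between the arrays, and Dnmt3l because it lay below the measuring range on both.
Dnmt3b (chr2:153649199-153649410, plus strand): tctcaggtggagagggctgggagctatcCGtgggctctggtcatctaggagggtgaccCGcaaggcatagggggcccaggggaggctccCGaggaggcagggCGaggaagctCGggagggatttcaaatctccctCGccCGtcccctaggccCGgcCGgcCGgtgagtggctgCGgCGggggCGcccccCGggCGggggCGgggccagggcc
Dnmt3l (chr10:78042037-78042286, plus strand): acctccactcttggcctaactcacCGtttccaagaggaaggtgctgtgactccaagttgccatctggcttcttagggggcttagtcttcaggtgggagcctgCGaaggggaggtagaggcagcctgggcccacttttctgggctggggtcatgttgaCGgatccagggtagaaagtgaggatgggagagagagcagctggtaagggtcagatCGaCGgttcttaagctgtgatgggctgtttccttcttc
The Dnmt3b stretch of 212 bases holds 16 CpGs and the Dnmt3l stretch of 250 bases holds 5. Over the full windows Dnmt3b had 30 CpGs and the 3 Dnmt3l windows had 6, 4 and 3, against a median of 7 over all 32851 windows in the table. Tet2 had the most, 57 CpGs in its window, and the Dnmt3a windows had 46, 47 and 18. The windows of Tet1 and Tet3 held 17 and 22. CpG-dense windows, defined here as over 50% GC with a CpG content above 0.6 of that expected from the base composition, made up 7 of the 15 windows, from 6 of the 8 genes, and 33.3% of all windows in the table. Dnmt3l and Tet3 were the genes without such a window, and Tet3 missed the definition narrowly with 0.58 of the expected CpG content. Tet1 met it narrowly, with 0.61. The share of all genes with such a window was not computed. Methylation itself was not measured in these cells.

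Intensities are MAS5 values, in which the probe pairs of a probe set are summarised to 1 number on a linear scale. A floor was set at 61.7, the median intensity over both arrays together, and a probe set under it was not taken as measured. Of the 20 probe sets, 17 lay above the floor on both arrays, and they represented 6 of the 8 genes. Different probe sets bind with different strength, so levels are not compared between genes, and each difference is between arrays for the same probe set. The spread between the arrays depended on intensity: the SD of the log2 difference was 0.43 at mean intensities below 200, 0.37 between 200 and 500, 0.25 between 500 and 2000, and 0.19 above 2000. The SD between probe sets of the same gene, which leaves out any error they share, was 0.35, 0.28, 0.19 and 0.13 in these ranges.

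The labels were checked where transcripts allow it. The transduced gene did not back the labels: 0 of the 5 Satb1 probe sets read higher on the array that carries its name. The brightest read 1115.7 (labelled GFP) and 909.1 (labelled Satb1), a log2 difference of -0.30. Others read 963.5 and 908.2 (-0.09) and 288.4 and 164.9 (-0.81). The pair 81.4 and 30.5 fell below the floor on the array labelled Satb1, and the pair 27.8 and 18.5 on both arrays. The SD between the arrays was 0.25 at intensities of 500 to 2000 and 0.37 at 200 to 500. Of all measured probe sets of the array, 45.6% were higher. The sources used here do not state how much of the gene was transduced, and an exchange of labels was not tested. All directions below therefore rest on the labels, and every sign would turn if the labels were exchanged. Kit read 3293.0 and 3388.0 and Flt3 1390.4 and 1334.3, so Flt3 transcript was above the floor in cells described as lacking the receptor. Of 6 lineage antigen genes analysed, Cd3e, Cd4 and Ms4a1 were below the floor on both arrays, and Ptprc, Itgam and Cd8a above it. Ptprc encodes CD45, which stem cells also carry. All 5 stem cell genes analysed were above the floor. Slamf1 read 95.7 and 232.6 (1.28 on the log2 scale) and Hoxa9 4612.0 and 3262.1 (-0.50), while Cd34, Mecom and Procr lay between -0.21 and -0.06. Sums over a marker list are given only to describe it, since its brightest probe set weighs most, and the stem cell genes summed to 14344.4 and 12631.3. The 3 granulocyte genes were above the floor and summed to 22283.3 and 27880.7. They did not share a direction: Mpo, the brightest, read 18391.1 and 16452.0 (-0.16), Elane 798.6 and 1319.5 (0.72), and S100a8 3093.6 and 10109.2 (1.71). The megakaryocyte genes Pf4 and Itga2b summed to 22693.8 and 24886.2 (0.13 each), and the erythroid gene Klf1 read 87.1 and 138.2. A change in the share of cells of a type and a change in RNA per cell cannot be told apart in such bulk samples, and the part of these cell types in the Dnmt3b, Tet1, Tet2 and Uhrf1 values was not tested.

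No gene of the set was 2-fold apart. Dnmt3b, a de novo methyltransferase gene, differed most, 1.40-fold higher on the array labelled Satb1, and Tet2, a demethylation gene, was 1.35-fold higher on the array labelled GFP. Dnmt1 and Dnmt3a, the other main methyltransferase genes, were within 1.08-fold by the brightest probe set of each. Other Dnmt3a probe sets ran from 1.22-fold lower to 1.16-fold higher on the array labelled Satb1. Of the 6 measured genes, 0 were at least 2-fold higher and 0 at least 2-fold lower on the array labelled Satb1. Over all 11048 genes above the floor on at least 1 array, 0.272% were at least 2-fold higher and 0.86% at least 2-fold lower, which is 30 and 95 genes (54 and 60 after quantile normalization). With so small a background a count of 0 among 6 genes is near what the whole array shows. At 1.5-fold the count among the 6 genes was again 0 in each direction, against 1.75% of all genes higher and 3.91% lower. The member probe sets ran from -0.43 to 0.48 in log2 difference, and 9 of the 17 measured were higher and 8 lower, compared with 45.6% higher among the 21336 measured probe sets of the array.

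**Figure D1:**
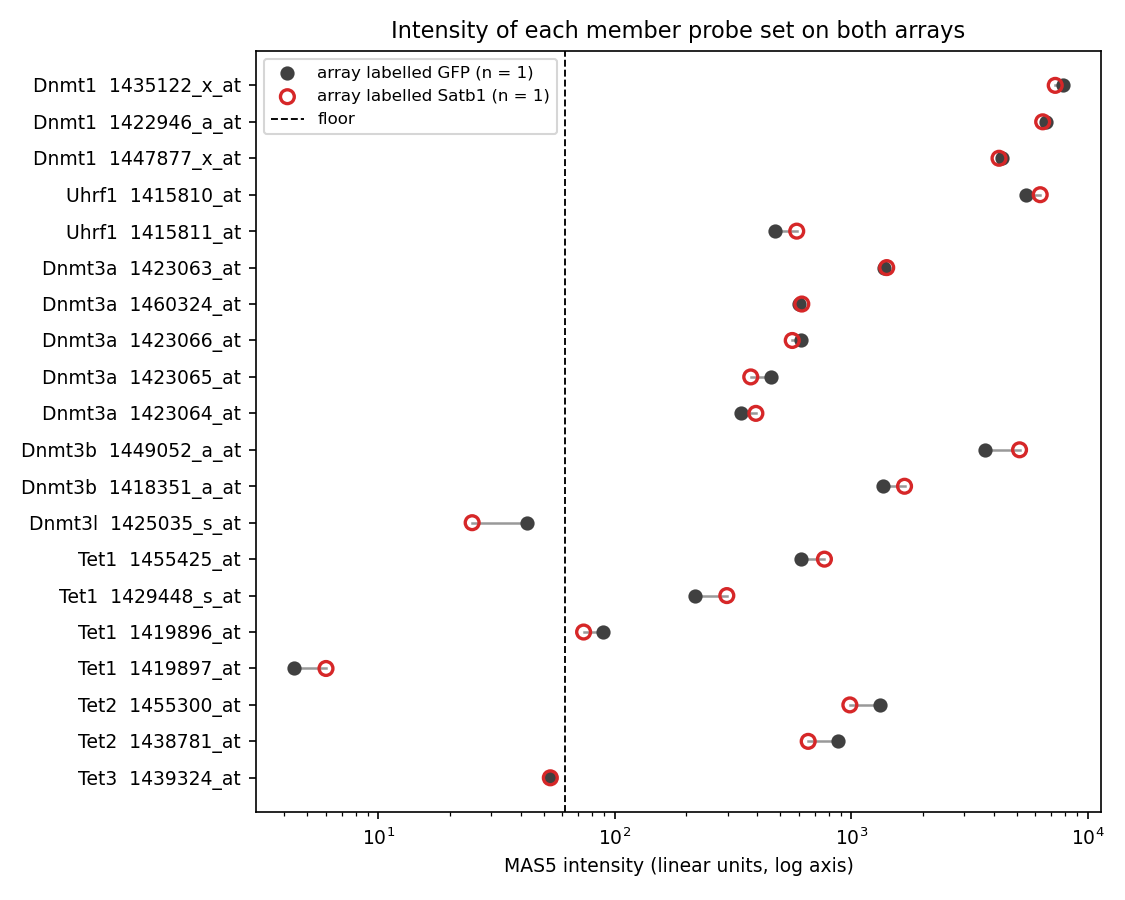
MAS5 intensity (log axis) of each of the 20 probe sets on the array labelled GFP (filled) and the array labelled Satb1 (open), n = 1 each, with the floor of 61.7 as a dashed line. Both Dnmt3b probe sets lie to the right and both Tet2 probe sets to the left on the array labelled Satb1, while the symbols of Dnmt1 nearly coincide.

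Among the de novo enzymes, Dnmt3b had the largest difference of the set. Its probe set 1449052_a_at read 3675.4 (labelled GFP) and 5139.7 (labelled Satb1), a 1.40-fold difference and 0.48 on the log2 scale. This lay 2.61 times the SD between the arrays at that intensity. The second probe set, 1418351_a_at, read 1357.5 and 1677.2, a log2 difference of 0.31 or 1.21 times the SD at its intensity. Both probe sets were thus higher on the array labelled Satb1, and they differed from each other by 0.18. The suffix _a_at marks probe sets that match several transcripts of the same gene. RefSeq also lists Dnmt3b-ps1, formerly Dnmt3c, a copy of Dnmt3b known from male germ cells, and whether these probes bind its transcript was not tested.

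Dnmt3a was measured by 5 probe sets, and they did not share a direction. The brightest, 1423063_at, read 1367.9 (labelled GFP) and 1409.8 (labelled Satb1), a log2 difference of 0.04. The others read 600.2 and 616.8 (1460324_at), 613.7 and 562.0 (1423066_at), 458.7 and 375.2 (1423065_at), and 339.7 and 394.4 (1423064_at). Of the 5 differences, 3 were above 0 and 2 below, from -0.29 to 0.22, with a mean of -0.02. All 5 lay within 1 SD of the differences between the arrays at their intensity. The range of 0.51 between the Dnmt3a probe sets is close to the median range of 0.54 among the 209 genes with 5 measured probe sets. Dnmt3l, a gene mostly of germ cells and early embryos, read 42.5 and 24.9 by its only probe set (1425035_s_at), below the floor on both arrays, so no difference is given.

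The maintenance genes read far above the floor on both arrays, with small differences. Dnmt1 read 7842.1 (labelled GFP) and 7274.9 (labelled Satb1) by 1435122_x_at, a log2 difference of -0.11. The probe set 1422946_a_at read 6679.6 and 6437.9 (-0.05) and 1447877_x_at read 4337.1 and 4208.5 (-0.04). All 3 were lower by less than 1 SD of the differences at that intensity, which was 0.19. The suffix _x_at marks probe sets that can also bind transcripts of other genes.

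Uhrf1, whose protein guides Dnmt1 to hemimethylated sites, was the maintenance gene with the larger difference. Its probe set 1415810_at read 5495.4 and 6284.8, a log2 difference of 0.19 or 1.05 times the SD. The second, 1415811_at, read 473.7 and 587.1, a difference of 0.31 or 1.22 times the SD. Both were higher on the array labelled Satb1. Dnmt1 and Uhrf1 are known to be transcribed most in dividing cells, so proliferation genes are given beside them. Mki67 read 10748.1 and 10514.4, Top2a 10888.4 and 11605.6, and Pcna 18590.8 and 18655.6, log2 differences of -0.03, 0.09 and 0.01, and their part in the Uhrf1 values was not tested.

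Because both are genes of dividing cells, the windows were searched for a short word known to be bound by the E2F transcription factors, which drive genes of DNA replication. The words searched on both strands were TTTCCCGC, TTTCGCGC, TTTGCCGC and TTTGGCGC. Among the 8 genes only Dnmt1 and Uhrf1 had a window with a match, 2 of 15 windows, compared with 2.3% of all windows. Each word holds a CpG, and both windows with a match held 33 CpGs, against the median of 7 over all windows. The share among windows as rich in CpG was not computed, so no enrichment is read from these counts. The matches are shown in capitals with the surrounding bases, 5′ to 3′ on the gene's strand.
Dnmt1 (chr9:20952827-20952850, minus strand, word on the opposite strand): ttccgcgcGCGCGAAAaagccggg
Dnmt1 (chr9:20952575-20952598, minus strand): gggcagcgTTTGGCGCgggctgtg
Uhrf1 (chr17:56304120-56304143, plus strand): gagtcgggTTTCGCGCgcccaggc
Both Dnmt1 matches lie in the same window, and its other 2 windows and the other Uhrf1 window held none. Both windows with a match belong to starts inside the span of the annotated gene. A match describes the letters and shows no binding.

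Among the TET genes, Tet2 was lower on the array labelled Satb1 by both of its probe sets. The probe set 1455300_at read 1325.9 (labelled GFP) and 984.8 (labelled Satb1), a 1.35-fold difference and -0.43 on the log2 scale. By 1438781_at the intensities were 880.3 and 656.4, or -0.42. These lay below 0 by 1.70 and 1.67 times the SD at their intensity. The values of both probe sets differed from each other by 0.01, while the median range among the 2812 genes with 2 measured probe sets was 0.21.

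Tet1 went the other way by its brighter probe sets. The probe set 1455425_at read 610.3 and 768.8, a log2 difference of 0.33, and 1429448_s_at read 218.9 and 297.2, a difference of 0.44. These are 1.32 and 1.2 times the SD at their intensities. By the dim 1419896_at the intensities were 88.8 and 73.7, and the difference of -0.27 was 0.63 times the SD at its intensity, and the last, 1419897_at, read 4.4 and 6.0, below the floor on both arrays. The measured Tet1 probe sets thus spanned 0.71, more than the median range of 0.35 among the 1212 genes with 3 measured probe sets, and 1429448_s_at is of a kind that matches transcripts of several genes. With the mean over all 4 probe sets in place of the brightest, the Tet1 difference was 0.13. That mean includes 1419897_at, which the floor set to a difference of 0. Over the 3 measured probe sets the mean was 0.17. Tet3 read 53.1 and 53.3 by its only probe set (1439324_at), below the floor on both arrays.

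**Figure D2:**
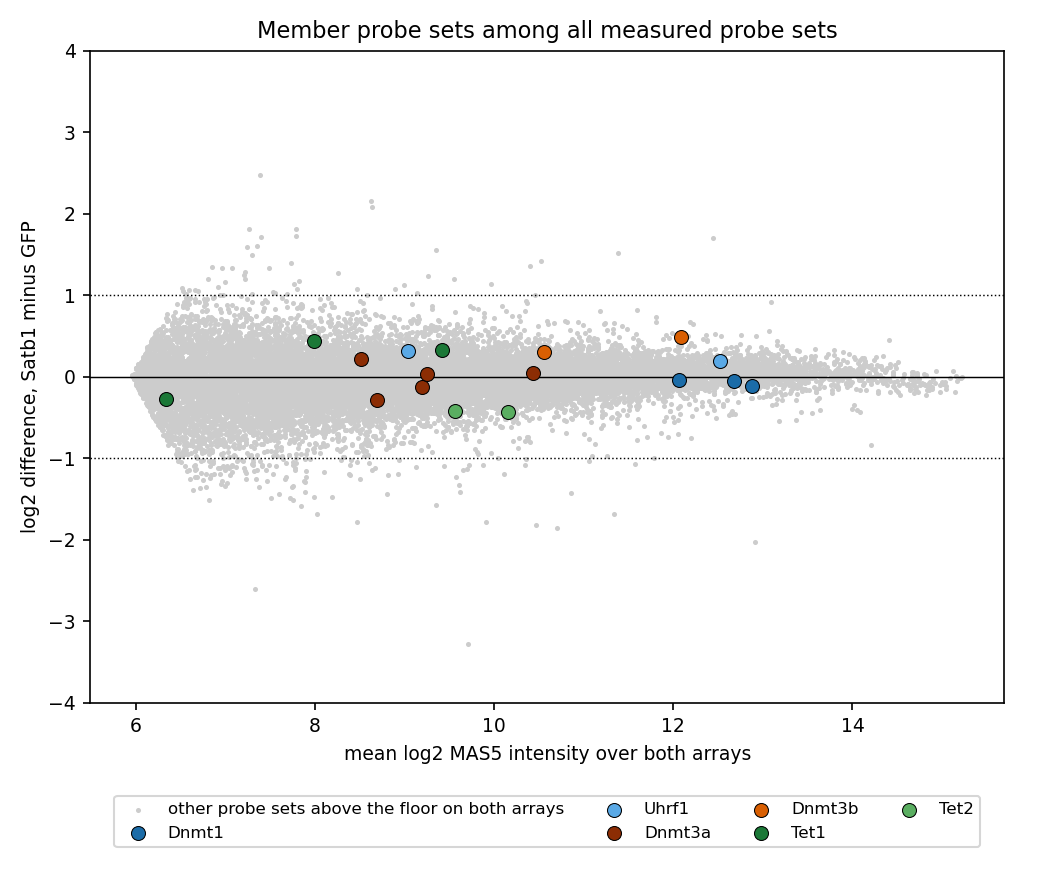
Log2 difference (Satb1 minus GFP) against mean log2 intensity for probe sets with 1 gene symbol that lie above the floor on both arrays, with the 17 member probe sets in colour and dotted lines at 2-fold. The brighter Dnmt3b probe set, at 0.48, lies on the upper side of the probe sets of its intensity, with others above it. The Tet2 probe sets, at -0.43 and -0.42, lie on the lower side of theirs.

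Agreement between probe sets was then counted. All measured probe sets of a gene lay on the same side of 0 for 4 of the 6 measured genes, namely Dnmt1, Dnmt3b, Tet2 and Uhrf1 (3 after median centring, where 1 Dnmt1 probe set moved above 0), and for 47.83% of the 4840 genes with 2 or more measured probe sets. That share was 58.46% for genes with 2 measured probe sets, as Dnmt3b, Tet2 and Uhrf1 have, and 40.18% for genes with 3, as Dnmt1 has. A stricter count, with a threshold of 1.2-fold chosen after the values were seen, left Dnmt3b (1 of 6 genes) with every probe set at least 1.2-fold higher, as in 1.98% of the 4840 genes. It left Tet2 (1 of 6) with every probe set at least 1.2-fold lower, as in 3.6% of them. Both shares are over genes with 2 or more measured probe sets, and a gene with fewer meets such a count more readily. The shares for genes with exactly 2, as Dnmt3b and Tet2 have, were not computed, so how rare these counts are is not given. By the probe set that stands for each gene, the one with the highest mean, 2 genes (Dnmt3b and Tet1) were at least 1.2-fold higher and 1 (Tet2) lower. The same rule counted 9.55% of all genes as higher and 17% as lower.

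**Figure D3:**
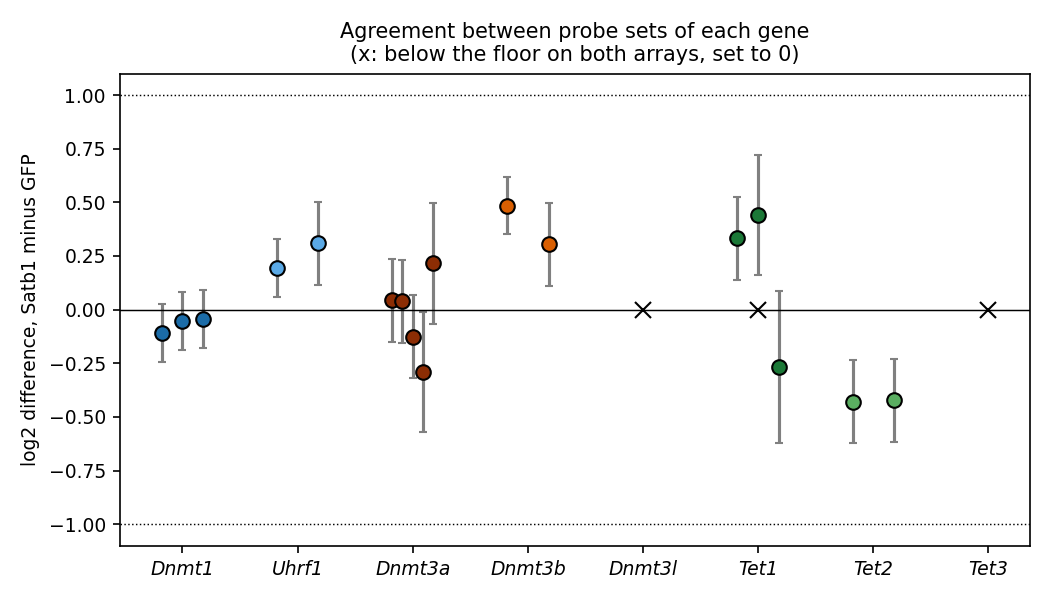
Log2 difference of each member probe set, 1 point per probe set above the floor on both arrays, with bars of 1 within-gene SD for its intensity range (0.13 to 0.35) and crosses for probe sets below the floor. The Dnmt3b and Tet2 points lie on opposite sides of 0 and their bars do not reach it, while the 5 Dnmt3a points lie on both sides. Both Uhrf1 bars, those of the brighter Tet1 points and, narrowly, that of Dnmt3a 1423065_at do not reach 0 either. The bars leave out error shared by the probe sets of a gene, so a bar that misses 0 is no test.

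Over the 8 genes the median log2 difference was 0.02, and over the 6 measured genes 0.12. Over all genes these medians were 0 and -0.02. Since the genes of the set differ in direction, the median describes none of them: in order, the values were -0.43 for Tet2, -0.11 for Dnmt1, 0.04 for Dnmt3a, 0.19 for Uhrf1, 0.33 for Tet1 and 0.48 for Dnmt3b. Neighbours in this order differ by less than the between-array SD of probe sets of 500 to 2000, which was 0.25, except Tet2 and Dnmt1.

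The other genes of DNA methylation were taken from a list of 78 genes in 7 roles, of which 70 were analysed here and 63 were above the floor. None was 2-fold apart in either direction (0 and 0), 30 lay above 0 and 33 below it, and the median over the 63 was -0.01. For all 11048 genes above the floor the median was -0.02, and 54.8% lay below 0. Many of these differences are so small that their sign depends on the scaling: after median centring 41 of the 63 lay above 0 and 22 below it, compared with 45.2% of all genes below it.

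Among partners of Dnmt1, 6 of 11 lay above 0 and 5 below it (8 and 3 after median centring), with a median of 0.01. Pcna, the replication clamp that Dnmt1 binds, has been given above, and the deacetylase gene Hdac2 read 5317.5 and 5800.3. Hells, a chromatin remodeller needed for methylation of repeats, read 4596.4 (labelled GFP) and 5160.4 (labelled Satb1), and its other probe sets were lower. Dmap1, which binds Dnmt1, read 664.8 and 567.0, and Zbtb24, a zinc finger gene of the same pathway, 403.3 and 352.7. All of these are log2 differences between -0.23 and 0.17. Uhrf2, a relative of Uhrf1, had -0.05 by its brighter probe set and -0.77 by the other.

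Readers of methylated CpG included Zbtb4, whose difference was the largest of the wider list by the probe set that stands for each gene. Other probe sets of Uhrf2 (-0.77) and Zbtb38 (-0.72) lay farther from 0. Zbtb4 read 113.6 and 72.4, a log2 difference of -0.65, near the floor and by 1 of its 4 probe sets. Mbd3, a subunit of the NuRD complex, read 1466.1 and 1683.3 (0.20), Zbtb38 429.9 and 385.1 (-0.16), Mbd2 2196.2 and 2353.5, and Zbtb33 1784.7 and 1798.5. Of 7 readers, 4 lay above 0 and 3 below it (5 and 2 after median centring).

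Genes for the removal of modified cytosine included the next largest differences by the same choice of probe set, with 7 of 13 above 0 and 6 below it, also after median centring. Neil1, a DNA glycosylase, read 254.6 (labelled GFP) and 168.3 (labelled Satb1), a log2 difference of -0.60. The stress-induced genes Gadd45g (181.7 and 273.9, 0.59) and Gadd45a (436.7 and 607.5, 0.48), reported to take part in demethylation, were higher. Gadd45b, of the same family, was lower by all 3 of its probe sets, with 370.9 and 290.2 (-0.35) by the brightest, so the family did not share a direction. Neil1, Gadd45g and Gadd45a were each measured by 1 probe set, and the between-array SD at that intensity was 0.37 for Neil1 and Gadd45g and 0.25 for Gadd45a. Apex1, the abasic site endonuclease gene, read 7397.8 and 7561.1, and the strand break sensor gene Parp1 3431.1 and 3107.6.

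Genes of cofactor supply differed little by their brightest probe sets and more by some others. TET enzymes need 2-oxoglutarate, and the isocitrate dehydrogenase genes that make it read 5788.5 and 5913.5 for Idh1, 4877.1 and 5287.3 for Idh3a, and 9156.7 and 9344.2 for Idh3g. D2hgdh, which removes the TET inhibitor 2-hydroxyglutarate, read 1255.0 and 1136.6. By the brightest probe sets the differences in this group of 7 ran from -0.14 (D2hgdh) to 0.12 (Idh3a), with 4 above 0 and 3 below it (6 and 1 after median centring), while other probe sets gave 0.43 for Idh3a and -0.30 for Idh2. Methyltransferases use S-adenosylmethionine, and in that cycle 5 of 10 measured genes lay above 0 and 5 below it (7 and 3 after median centring). Mat2b, a regulatory subunit of the synthetase, read 2823.5 and 3203.6 (0.18), and Ahcy, which clears the product inhibitor, 6740.0 and 7558.5 (0.17). Mtrr, which reactivates methionine synthase, read 506.1 and 429.0 (-0.24), and the adenosine kinase gene Adk 6996.4 and 6889.9 (-0.02). Other probe sets of Mthfd1 and Ahcyl2 gave -0.56 and -0.54, against 0.07 and -0.04 by the brightest.

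Of the CXXC proteins and TET regulators, 6 of 9 were measured, 3 above 0 and 3 below it, also after median centring. The CpG-binding genes Cxxc1 (941.2 and 831.8, -0.18) and Cxxc5 (2479.6 and 2261.5, -0.13) were lower by their brightest probe sets. The other Cxxc5 probe set gave 0.01. Oga (3737.4 and 3415.8, -0.13), the enzyme that removes the sugar that Ogt adds, was also lower by its brightest, although its 6 probe sets ranged from -0.57 to 0.32. Ogt, a partner of TET proteins, read 5081.0 and 5149.8, and the demethylase gene Kdm2b 4854.4 and 5042.3. Among the guides of de novo methylation, 8 of 9 measured genes lay below 0 and 1 above it, and the median was -0.03. After median centring 4 lay below 0 and 5 above it, so no direction of the group is given, and Ctcf had -0.02 by its brighter probe set and 0.49 by the other. The histone methyltransferase genes Ehmt2 (1759.9 and 1458.7, -0.27), Nsd1 (2378.5 and 2078.2, -0.19) and Ehmt1 (2545.7 and 2314.8, -0.14) had the largest differences by the brightest probe sets. The 3 measured Nsd1 probe sets ranged from -0.19 to 0.16. Trim28, which silences repeats and protects imprints, read 10363.6 and 10196.3 (-0.02), and its other probe set gave 0.004. Npm1, the gene above 0 before centring, read 28205.6 and 28971.2 (0.04) by its brightest probe set. The other Npm1 probe set gave -0.06.

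**Figure D4:**
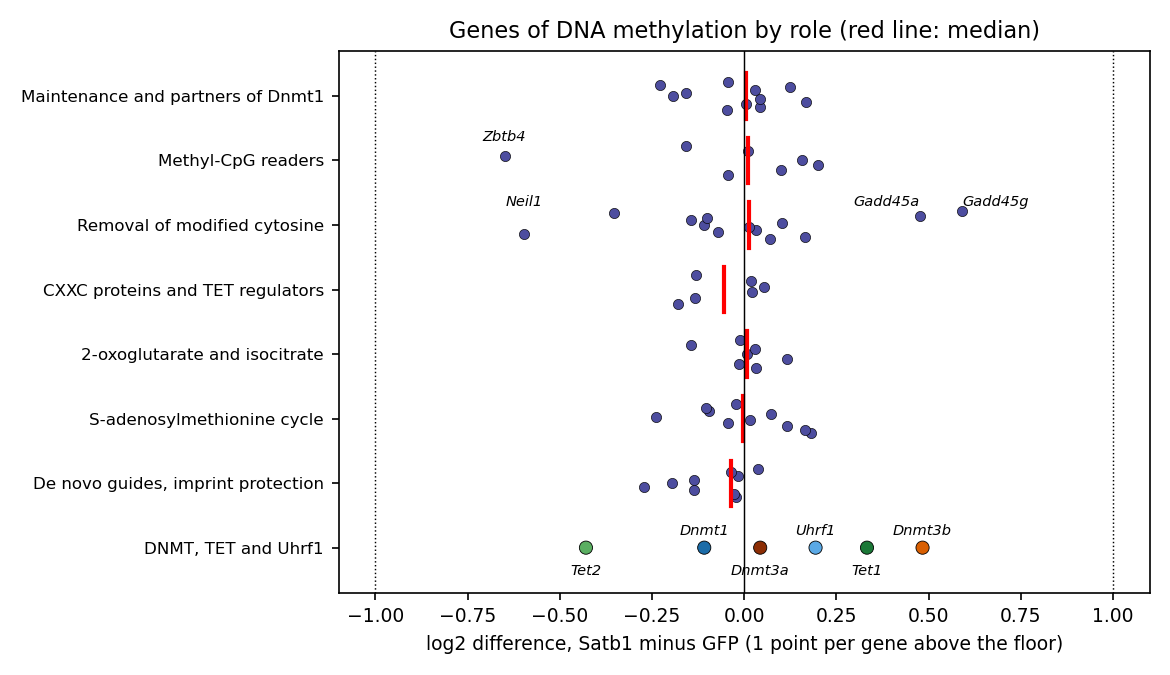
Log2 difference (Satb1 minus GFP) of each of the 63 measured genes of the wider list by role, with the median of each role as a red line, the 6 measured genes of the set in the bottom row and dotted lines at 2-fold. All points lie inside 2-fold, and by these probe sets, 1 for each gene, Zbtb4, Neil1, Gadd45a and Gadd45g lie farthest from 0 among the wider list.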

How the data were processed

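Total RNA (250 ng) was labelled with biotin by in vitro transcription and hybridised to 2 arrays, 1 per group, per the labels' protocols. The deposited values are MAS5 intensities on a linear scale, per the submitters' processing notes; the sources used here state no version, scaling target or genome build. The authors' columns had equal means (497) after removal of the lowest and highest 2%. The number of arrays limits the precision.

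Symbols were updated by Entrez gene ID (34741 of 34945 probe sets with 1 symbol). Those with several symbols (932) or none (9160) were not used. Values below 61.7 were set to that floor, log2 differences were taken without further scaling, and each gene stood for its probe set with the highest mean. Python 3.11.15, numpy 2.4.6 and pandas 2.3.3 were used, and the scripts were tested on simulated data. Genes of the wider list were named if 2-fold apart, among the 3 with the largest difference or the 2 with the highest intensity of their role. With 2 arrays no likeness of pattern between genes was computed. The members and lists were chosen with earlier results of these data known. Alternatives tried were other floors, a pseudocount, scalings, probe set rules and fold thresholds.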

Additional observations from a re-analysis of the deposited data

How the results depend on the processing

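The directions of Dnmt1 (-0.17 to -0.05), Dnmt3b (0.39 to 0.54), Tet1 (0.13 to 0.38), Tet2 (-0.43 to -0.38) and Uhrf1 (0.15 to 0.25) were kept under every floor, scaling and probe set rule that gave a value. The floors could not change them, since the probe sets that stand for these genes lay above each floor. Median centring moved all of them by the same amount. None of these settings stands in for a replicate array. Dnmt3a ran from -0.02 to 0.09 and turned below 0 with the mean over probe sets. Probe sets of plain suffix were not available for Dnmt1, Dnmt3b and Dnmt3l under the strictest probe set rule. At 2-fold, 0 members were counted under any of these alternatives, and at 1.5-fold and 3-fold also 0. At 1.2-fold, chosen after seeing the data, 2 were higher and 1 lower. In the wider list 1 gene was higher with the floor at the 25th percentile or a pseudocount of 16, 2 were higher and 2 lower with no floor, and 1 was higher and 2 lower at 1.5-fold; the added 2-fold genes were below the main floor on both arrays. Over all genes, higher and lower counts were 440 and 787 (25th percentile floor), 5 and 18 (75th), 1472 and 1977 (no floor), 355 and 580 (pseudocount), 54 and 60 (quantile normalization), 18 and 57 (mean over probe sets), 193 and 432 (1.5-fold) and 9 and 10 (3-fold). Lower floors and thresholds admit more genes by construction; for quantile normalization and the mean over probe sets the cause was not tested. No paired analysis was possible because each group had 1 array and the labels carry no replicate numbers, and no array could be left out. Signal over background limits Dnmt3l, Tet3 and the dim Tet1 probe sets.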
